A study of Mus musculus with 15 samples.

Results

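Mitochondrial fatty acid oxidation shortens acyl-CoA in a repeating cycle of 4 reactions, and 9 genes of this route together with the transcription factor gene Ppara were followed through sorted mouse islet cells. The 10 genes, Cpt1a, Cpt2, Acadvl, Acadl, Acadm, Hadha, Hadhb, Hadh, Acaa2 and Ppara, were listed by symbol, and all 10 were found among the 23699 entries that each library's expression table lists. The list takes no threshold on expression, but it was drawn up with earlier results of these data known. Of the 10, 9 passed the filter on low values that 11254 genes passed, and Ppara did not.

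Carnitine palmitoyltransferases carry long-chain acyl groups into the mitochondrion, acyl-CoA dehydrogenases start each turn of the cycle, and hydratase, hydroxyacyl-CoA dehydrogenase and thiolase activities complete it. PPARα, the product of Ppara, is a nuclear receptor that binds fatty acid ligands with RXR as partner and switches on many of these enzymes in liver and heart. In the pancreatic β cell, malonyl-CoA made from glucose restrains the entry step, so that glucose and fatty acids compete as fuels. The β cell is also known for abundant short-chain hydroxyacyl-CoA dehydrogenase, the product of Hadh, and inherited loss of this enzyme in people causes excess insulin release.

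The 15 libraries came from islet cells positive for red fluorescent protein (RFP), which cre recombination switches on, that were separated with aldefluor, a fluorescent substrate of aldehyde dehydrogenase (ALDH), into ALDH- and ALDH+ cells. The labels give control mice as heterozygous and knockout mice as homozygous mutant for Foxo1, Foxo3 and Foxo4, all on a mixed 129JC57BL/6 background, whereas the study's methods describe its Rip-cre controls as carrying no floxed Foxo allele. Of the control libraries 3 were ALDH- and 2 ALDH+, and of the Foxo knockout libraries 5 were ALDH- and 5 ALDH+. Cre was driven by the rat insulin promoter (Rip-cre, active in β cells) in 9 libraries: control ALDH- replicates 1 and 2, control ALDH+ replicate 1, and knockout replicates 1, 2 and 3 of each sort. It was driven by the Pdx promoter (Pdx-cre, active from pancreatic precursors onwards) in the other 6: control ALDH- replicate 3, control ALDH+ replicate 2, and knockout replicates 4 and 5 of each sort. RFP in Pdx-cre mice can therefore mark any cell descended from a pancreatic precursor. The methods give an age of 6 months and pooled animals for the Rip-cre mice, and the labels give neither for the Pdx-cre mice. Nothing in the labels says whether replicates came from separate pools, so p-values measure the spread between these libraries. Cre driver and any difference in mouse colony, sorting day or sequencing run cannot be told apart.

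Each library held 6717988 to 9603291 fragments on usable genes. Foxo1 lay between 12.04 and 20.1 FPKM (fragments per kilobase of transcript, scaled to the mapped fragments of the library) in the 5 control libraries and between 0.0925 and 4.24 FPKM in the 10 knockout libraries, Foxo3 overlapped between them, and Foxo4 was low in both. Aldh1a3 lay between 0.490 and 4.09 FPKM in ALDH- and between 22.1 and 76.9 FPKM in ALDH+ libraries. The β-cell label was checked against 9 markers, of which Ins1 was flagged as too deeply covered in all 15 libraries and Ins2 in 3, and the other 7 were above 0 in every library. Iapp, the islet amyloid gene, lay between 33200 and 125100 FPKM and made up most of their sum, whereas Slc2a2 was as low as 8.61 FPKM and Mafa was under 1 FPKM in 2 libraries, all of them Pdx-cre. Glucagon (Gcg), the α-cell hormone transcript, exceeded 5000 FPKM in 4 Pdx-cre libraries, and transcripts of acinar cells reached at least 379 FPKM in sum in 3 Pdx-cre libraries, against at most 1.72 FPKM in any Rip-cre library. Stromal markers did not exceed 1.14 FPKM in sum, and endothelial markers did not exceed 4.01 FPKM. In bulk libraries, fewer cells of a type and less RNA per cell cannot be told apart.

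The start regions of the members that the results turn on are shown first. Each window runs from 250 bases before to 50 bases after the RefSeq transcript start on GRCm38.p6, is written 5′ to 3′ on the gene's own strand, and carries capitals where a searched motif was found. Windows were at hand for 9 members, all except Acaa2. Hadh and Cpt1a are shown because they were the members that differed between cre drivers. Hadhb is shown because it and Hadha, which encode the 2 subunits of one enzyme, lie head to head, so that 228 bases of this window are also the start region of Hadha read on the other strand.
Hadh, chr3:131272052-131272351, minus strand: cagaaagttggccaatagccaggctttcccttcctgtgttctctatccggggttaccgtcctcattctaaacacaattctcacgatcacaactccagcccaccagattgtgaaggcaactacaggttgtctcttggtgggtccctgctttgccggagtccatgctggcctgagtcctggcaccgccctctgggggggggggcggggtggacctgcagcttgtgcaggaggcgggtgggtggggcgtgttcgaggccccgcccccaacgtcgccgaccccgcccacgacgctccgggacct
Cpt1a, chr19:3323051-3323350, plus strand: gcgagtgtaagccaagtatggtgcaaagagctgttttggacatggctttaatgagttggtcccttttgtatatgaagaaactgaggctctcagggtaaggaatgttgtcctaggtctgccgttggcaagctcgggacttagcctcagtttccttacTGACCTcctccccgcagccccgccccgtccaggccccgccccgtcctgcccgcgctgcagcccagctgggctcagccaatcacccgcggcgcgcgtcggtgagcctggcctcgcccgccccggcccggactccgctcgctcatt
Hadhb, chr5:30155003-30155302, plus strand: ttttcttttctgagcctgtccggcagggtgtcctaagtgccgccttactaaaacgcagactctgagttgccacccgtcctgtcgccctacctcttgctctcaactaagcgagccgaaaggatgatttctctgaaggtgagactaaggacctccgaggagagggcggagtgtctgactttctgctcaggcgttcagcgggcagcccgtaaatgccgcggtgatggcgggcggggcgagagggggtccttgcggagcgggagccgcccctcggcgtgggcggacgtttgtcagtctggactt

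Motifs were searched on both strands as exact letters. The PPAR-RXR direct repeat AGGTCANAGGTCA was found in none of the 9 windows and in 0.0396% of all 32851 windows, and the FoxO core GTAAACA in none of the 9 and in 3.65% of all. The single site AGGTCA, which is contained in the repeat, was found in Acadm, Acadvl and Cpt1a, and in 16.3% of all windows. In Cpt1a it appears as the capitals TGACCT, on the opposite strand, 94 to 89 bases before the start. The ERR site TCAAGGTCA and the E-box CACGTG were found in none of the 9, and in 0.423% and 7.15% of all windows. The NRF1 palindrome GCGCATGCGC was found in Ppara alone of the 9 and in 0.971% of all. No searched motif was found in all 9 windows.

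The levels of the members, which FPKM makes comparable between genes, spanned a wide range. After rescaling between libraries, Hadh was highest at 154 ± 59.3 FPKM (mean ± SD, n = 15 libraries), above 98.6% of all usable genes. The trifunctional protein genes followed, with Hadhb at 32.6 ± 5.02 and Hadha at 27.3 ± 5.43 FPKM. Acadvl stood at 26.7 ± 6.23, Cpt2 at 20.6 ± 3.65, Cpt1a at 11.5 ± 6.53, Acaa2 at 10.6 ± 3.41, Acadl at 8.54 ± 2.76 and Acadm at 5.91 ± 2.13 FPKM. Of neighbours in this order, Hadh exceeded Hadhb, Acadl exceeded Acadm and Acadm exceeded Ppara in 15 of 15 libraries. Acadvl exceeded Cpt2 in 14, Cpt2 exceeded Cpt1a in 13 and Hadhb exceeded Hadha in 12 of 15. The order was not kept across libraries for Acaa2 over Acadl (10 of 15), Cpt1a over Acaa2 (7 of 15) and Hadha over Acadvl (6 of 15). Ppara was lowest, with 0 to 1.76 FPKM. Cpt1a varied most among the tested members relative to its mean (coefficient of variation 56.8%), and Hadhb least (15.4%).

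**Figure D1:**
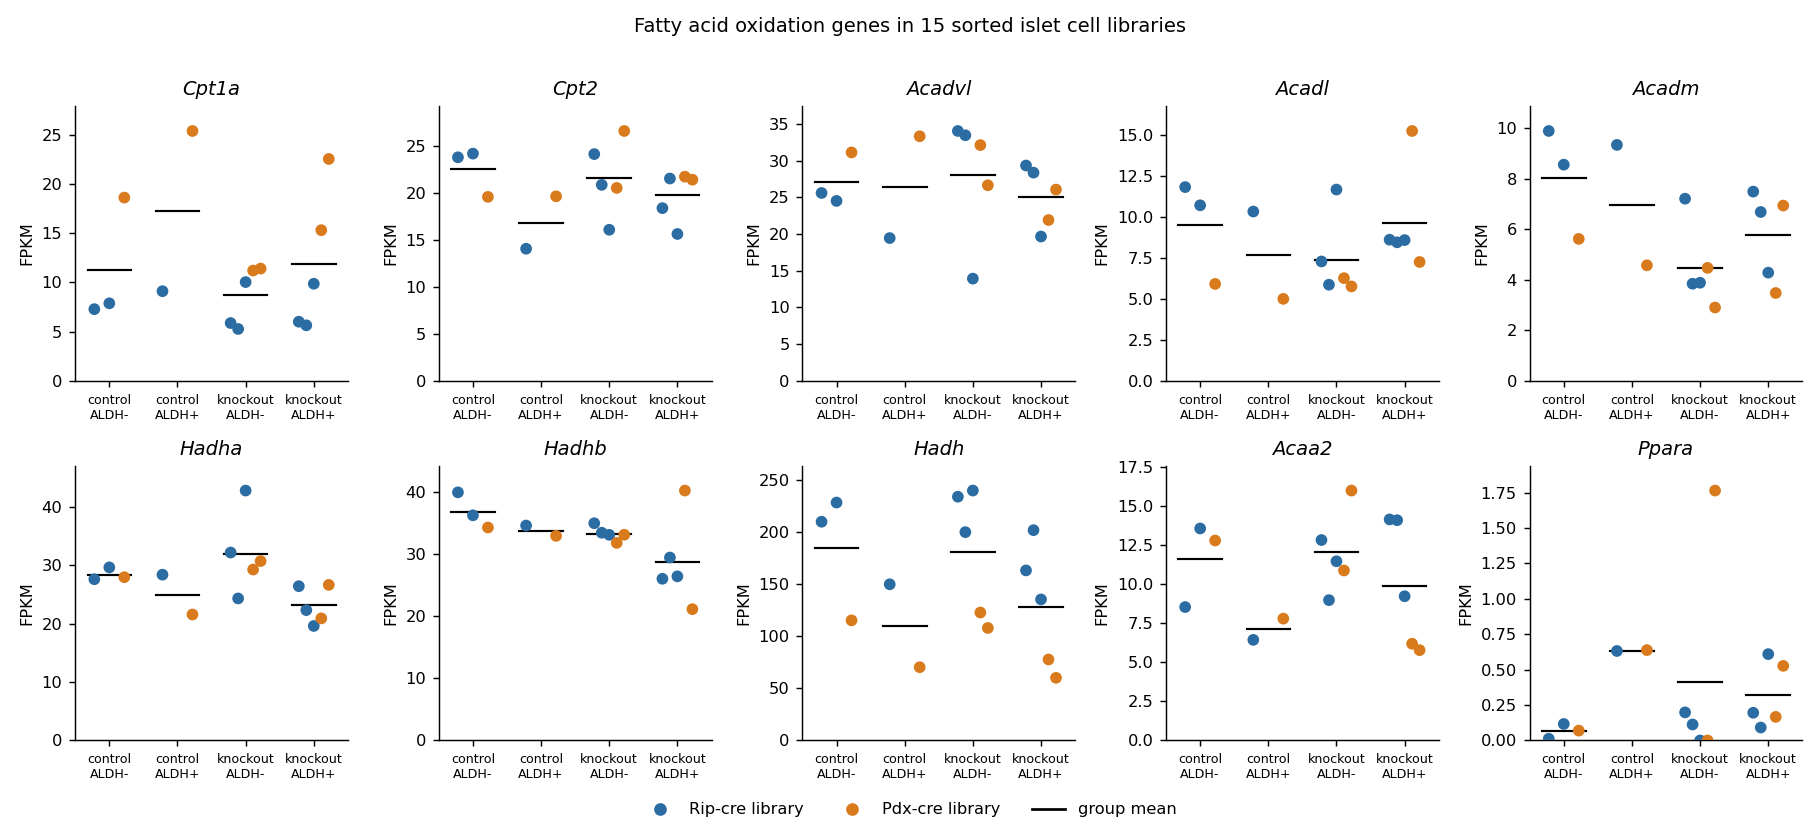
FPKM (vertical axes, each from 0) of the 10 genes in every library, by genotype and ALDH sort, with Rip-cre libraries in blue, Pdx-cre libraries in orange and group means as lines. Every orange Cpt1a point lies above every blue one, every orange Hadh point lies below every blue one, and Ppara reaches 1.76 FPKM in a single library.

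Cpt1a encodes the carnitine palmitoyltransferase of the outer mitochondrial membrane, the step that malonyl-CoA inhibits. In Rip-cre libraries it stood at 7.28 and 7.88 FPKM in control ALDH-, 9.10 in control ALDH+, 5.87, 5.27 and 10.03 in knockout ALDH-, and 6.01, 5.64 and 9.86 in knockout ALDH+ cells. In Pdx-cre libraries it stood at 18.6 FPKM in control ALDH-, 25.4 in control ALDH+, 11.2 and 11.4 in knockout ALDH-, and 15.3 and 22.5 in knockout ALDH+ cells. The lowest Pdx-cre library was thus above the highest Rip-cre library, within each sort and over all 15. The estimated difference was 1.12 on the log2(FPKM + 1) scale (SE 0.19, adjusted p = 0.0018, limma across all genes with Benjamini-Hochberg adjustment), a 2.17-fold higher level with Pdx-cre. Of all genes tested, 9.84% passed the threshold of adjusted p under 0.05 in this comparison, 634 higher and 473 lower. The ranges of the cre drivers were apart in 1.95% of all genes tested over the 15 libraries. Within ALDH- libraries they were apart in 11.4%, and within ALDH+ libraries in 13.8%.

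Cpt1a was the most abundant of the carnitine palmitoyltransferase 1 genes. Cpt1b, the muscle form, reached at most 2.84 FPKM with a median of 0.00921, and Cpt1c, the brain form, had a median of 1.53 FPKM. Its ALDH difference was 0.31 on the log2 scale (SE 0.20, 95% confidence interval -0.11 to 0.73, adjusted p = 0.40). The cre difference did not differ detectably between ALDH sorts (interaction 0.44, SE 0.37, adjusted p = 1.0).

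Hadh, on chromosome 3 (130936341 to 130974955, mm9, as the tables give it), encodes the dehydrogenase that acts on medium- and short-chain hydroxyacyl-CoA. In Rip-cre libraries it stood at 209.8 and 228 FPKM in control ALDH-, 149.8 in control ALDH+, 234, 199.8 and 239.7 in knockout ALDH-, and 163, 202 and 135 in knockout ALDH+ cells. In Pdx-cre libraries it stood at 115 FPKM in control ALDH-, 70.2 in control ALDH+, 123 and 108 in knockout ALDH-, and 77.7 and 60.1 in knockout ALDH+ cells. Each value rested on 960 to 4289 fragments. Every Pdx-cre library was below every Rip-cre library, and the difference was -1.02 on the log2 scale (SE 0.11, adjusted p = 5.6e-05), a level 0.492 times that of Rip-cre.

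Hadh was also the one member past the threshold between ALDH sorts, where 5.91% of all genes tested passed, 251 higher and 414 lower in ALDH+ cells. Within Rip-cre, the ALDH- libraries lay at 199.8 to 239.7 FPKM (222 ± 16.9, SD, n = 5) and the ALDH+ libraries at 135 to 202 FPKM (163 ± 28.5, n = 4). These ranges overlapped slightly as deposited and were apart after rescaling between libraries. Within Pdx-cre, ALDH- libraries lay at 108 to 123 FPKM (115 ± 7.42, n = 3) and ALDH+ libraries at 60.1 to 77.7 FPKM (69.3 ± 8.85, n = 3), with no overlap. The difference averaged over genotypes was -0.59 (SE 0.12, adjusted p = 0.0095), a level 0.664 times that of ALDH- cells. This call was lost without control ALDH+ replicate 1 (-0.59, adjusted p = 0.12), where 3 genes in all passed the threshold, and it was also lost within Rip-cre libraries alone (-0.49, adjusted p = 0.15) and within Pdx-cre libraries alone (-0.77, adjusted p = 0.81). It was lost as well with quantile normalization, where the estimate moved from -0.59 to -0.29 (adjusted p = 0.18).

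Within each genotype, as contrasts of the same fit, Hadh was below 0 as well. In control cells the ALDH difference was -0.63 (SE 0.19, adjusted p = 0.12), and 1.08% of all genes passed the threshold, a count of 121 that ranged from 0 to 243 when 1 library was left out and was 0 without any 1 of the 3 control ALDH- libraries, 1 without control ALDH+ replicate 1 and 9 without knockout ALDH- replicate 1. In knockout cells it was -0.55 (SE 0.13, adjusted p = 0.16), and 0.0178% of all genes passed. The interaction of genotype and ALDH was 0.09 (SE 0.24, 95% confidence interval -0.41 to 0.59, adjusted p = 1.0), and that of cre driver and ALDH was -0.31 (SE 0.22, adjusted p = 1.0). No gene passed the threshold in either interaction (0% in both), with 477 and 518 genes at an unadjusted p under 0.05.

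**Figure D2:**
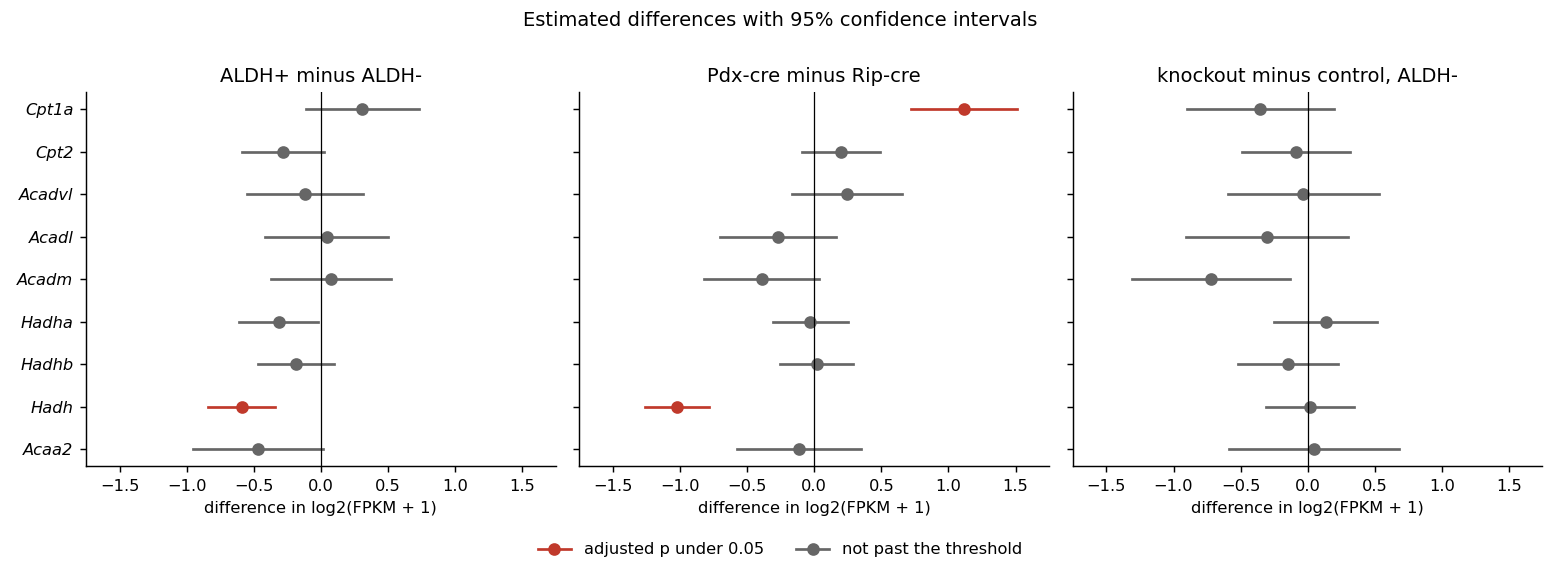
Estimated differences in log2(FPKM + 1) with 95% confidence intervals (horizontal axes) for the 9 tested members between ALDH sorts, between cre drivers, and between genotypes in ALDH- cells. Hadh is past the threshold (red) in the first and second panels, at -0.59 and -1.02, Cpt1a in the second at 1.12, and none in the third.

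Markers of other islet cells moved with the cre driver, so their values stand beside the Hadh and Cpt1a differences. Of 7 tested β-cell markers, 5 were lower with Pdx-cre, among them the glucose transporter gene Slc2a2 (-2.88, SE 0.24) and the transcription factor gene Mafa (-1.24, SE 0.32). All 3 tested α-cell markers were higher, with Gcg at 3.12 (SE 0.62), and 2 of 4 δ- and PP-cell markers were higher, with Sst at 2.35 (SE 0.50). Of 9 acinar markers 1 was higher (Ctrb1), of 3 tested duct markers 1 (Krt19), and both tested immune markers were higher (Cd68 and Cd74). Of the other immune markers, Ptprc was listed at 0 in 13 of 15 libraries, and Lyz2 at 0 in all 6 Pdx-cre libraries and at no more than 0.688 FPKM in Rip-cre libraries. The summed α-cell markers ranged from 157 to 1019 FPKM in Rip-cre and from 277 to 35850 FPKM in Pdx-cre libraries, the δ- and PP-cell markers from 878 to 3213 and from 1070 to 31830 FPKM, and the immune markers, mostly Cd68, from 21.2 to 38.3 and from 42.01 to 161 FPKM.

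The 2 Pdx-cre knockout ALDH+ libraries had Gcg at 268 and 598 FPKM, inside the Rip-cre range of 154 to 1016 FPKM, while their Hadh was 77.7 and 60.1 FPKM and their Cpt1a 15.3 and 22.5 FPKM. Without the 4 libraries over 5000 FPKM of Gcg, the cre difference rested on these 2 libraries and was -1.25 for Hadh (adjusted p = 0.023) and 1.30 for Cpt1a (adjusted p = 0.13). Without the 3 libraries with acinar transcripts it was -0.93 for Hadh (adjusted p = 0.0063) and 0.97 for Cpt1a (adjusted p = 0.083). Both exclusions were chosen after the data were seen. Of these 2 libraries, knockout ALDH+ replicate 5 held acinar transcripts (Ctrb1 at 601 FPKM). Their Slc2a2 was 24.6 and 8.61 FPKM, outside the Rip-cre range of 99.95 to 226.8 FPKM. Also below every Rip-cre library were their Pdx1 (31.39 and 27.19 FPKM), Nkx6-1 (41.07 and 33.44) and Ucn3 (301.8 and 69.88). The same held for G6pc2 (1051 and 313.3 FPKM) and Mafa (1.107 and 0.4344). Of the usable β-cell markers only Iapp, at 87330 and 90300 FPKM, was inside the Rip-cre range of 33200 to 125100 FPKM. The Cpt1a call was lost in both exclusions, which left fewer Pdx-cre libraries. The part of the β-cell, α-cell, acinar, Cd68 and Cd74 transcripts in these differences was not tested.

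**Figure D3:**
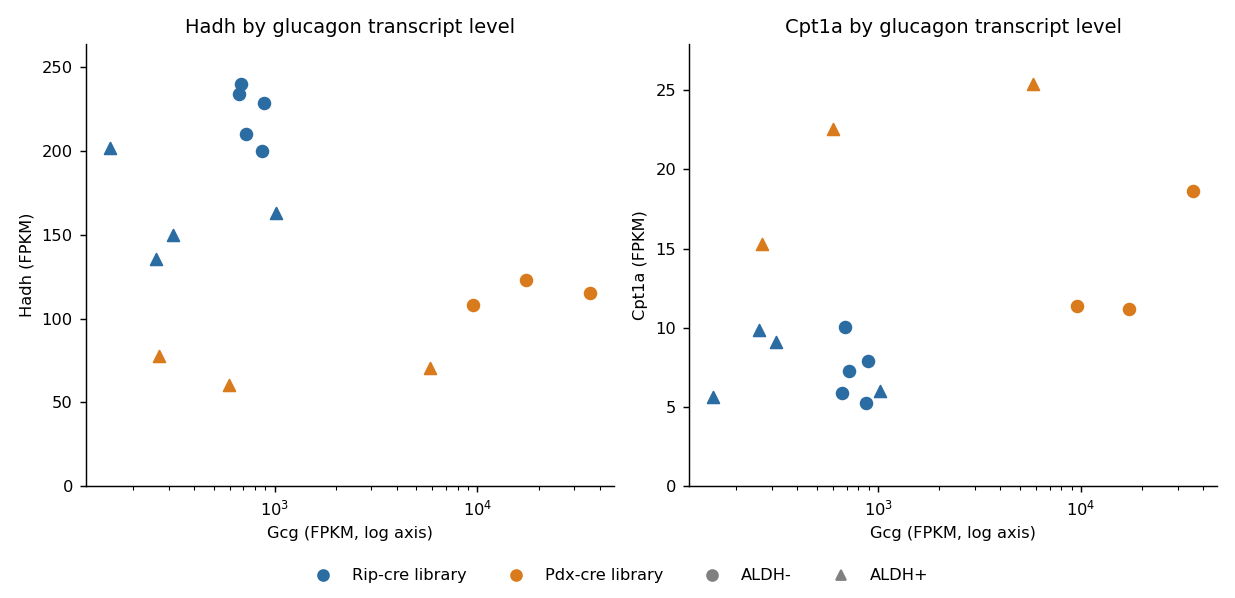
Hadh (left) and Cpt1a (right) in FPKM, vertical axes from 0, against Gcg in FPKM on a log axis, 1 point per library. The 2 Pdx-cre ALDH+ libraries at 268 and 598 FPKM of Gcg lie among the Rip-cre libraries along the horizontal axis and apart from them along the vertical axes.

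Because Hadh and Cpt1a separated the libraries by cre driver in opposite directions, their relation was read within each driver only. Pearson's r was -0.39 over the 9 Rip-cre and -0.65 over the 6 Pdx-cre libraries, given as a description.

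In ALDH+ cells, 2 of 4 δ- and PP-cell markers, Ppy (-2.09) and Pyy (-2.07), fell, and no β-cell, α-cell, acinar, duct, endothelial or immune marker passed the threshold. Gcg was at -2.13 (SE 0.65, adjusted p = 0.068), and the 9 acinar markers all had estimates above 0, with a median of 1.21. The acinar sum was 1451 FPKM in control ALDH+ replicate 2 and 0.285 and 683 FPKM in the Pdx-cre knockout ALDH+ libraries. No Rip-cre ALDH+ library exceeded 1.72 FPKM, and the highest ALDH- library reached 379 FPKM. A list of 6 transcripts, the long noncoding Malat1, Neat1, Meg3, Kcnq1ot1 and Snhg11 and the imprinted gene Peg3, which the study chose on these samples and which is therefore no independent evidence, rose with 6 of 6 members past the threshold (median 2.09 on the log2 scale). Their sum ranged from 429 to 1816 FPKM in ALDH- and from 2263 to 5381 FPKM in ALDH+ libraries. Their part in the lower Hadh was not tested.

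Cpt2 encodes the carnitine palmitoyltransferase of the inner membrane, which re-forms acyl-CoA in the matrix. It ranged from 14.1 to 26.6 FPKM over the 15 libraries, lowest in control ALDH+ replicate 1 and highest in knockout ALDH- replicate 5, and both sorts and both cre drivers overlapped. Its ALDH difference was -0.29 (SE 0.14, adjusted p = 0.28) and its cre difference 0.20 (SE 0.14, adjusted p = 0.40). Cpt1a was below Cpt2 in 13 of 15 libraries, and the exceptions were 2 Pdx-cre ALDH+ libraries. The ratio of Cpt1a to Cpt2 had a median of 0.326 in Rip-cre and 0.827 in Pdx-cre libraries.

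The 3 acyl-CoA dehydrogenase genes serve different chain lengths: Acadvl the very long, Acadl the long and Acadm the medium chains. Acadvl stood at 25.6, 24.5 and 31.1 FPKM in control ALDH-, 19.4 and 33.3 in control ALDH+, 34.0, 33.4, 13.9, 32.1 and 26.6 in knockout ALDH-, and 29.3, 28.4, 19.7, 21.9 and 26.0 in knockout ALDH+ libraries. Acadl stood at 11.8, 10.7 and 5.91 FPKM in control ALDH-, 10.3 and 4.998 in control ALDH+, 7.28, 5.86, 11.7, 6.26 and 5.76 in knockout ALDH-, and 8.60, 8.45, 8.58, 15.2 and 7.24 in knockout ALDH+ libraries. The highs of one gene fell on the lows of the other. Knockout ALDH- replicate 3 had the lowest Acadvl of its group and the highest Acadl, and control ALDH+ replicate 2 had high Acadvl and the lowest Acadl of all.

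Across the 15 libraries, Pearson's r between Acadvl and Acadl was -0.71 (permutation p = 0.00268, two-sided, adjusted p = 0.0482 over the 36 pairs of tested members) and Spearman's rho was -0.79 (permutation p = 0.00069, adjusted p = 0.0124). The value of r was -0.76 without the 2 libraries farthest from the median Acadvl level, -0.76 within Rip-cre (n = 9) and -0.89 within Pdx-cre (n = 6). The pair was chosen after its values were seen. Neither gene differed past the threshold between sorts, drivers or genotypes. Acadl rested on 81 to 266 fragments a library and Acadvl on 282 to 720.

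Acadm ranged from 2.90 to 9.88 FPKM on 48 to 192 fragments. Its largest estimate was between genotypes in ALDH- cells, with 9.88, 8.55 and 5.62 FPKM in control and 7.21, 3.84, 3.88, 4.47 and 2.90 FPKM in knockout libraries. These groups overlapped, and the difference of -0.72 (SE 0.28, unadjusted p = 0.020) did not pass after adjustment (adjusted p = 0.80).

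**Figure D4:**
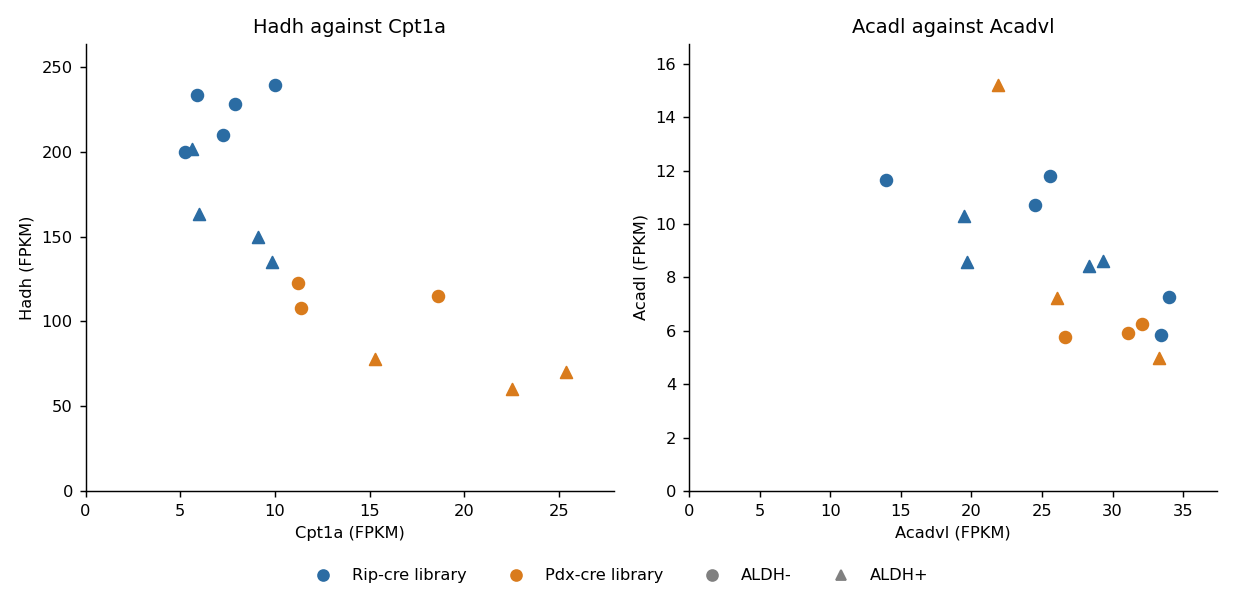
Hadh against Cpt1a (left) and Acadl against Acadvl (right), both axes in FPKM from 0, 1 point per library, with color for cre driver and shape for ALDH sort. The left panel splits into a blue and an orange cluster, and in the right panel Acadl is low where Acadvl is high among libraries of either color.

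Hadha and Hadhb encode the α and β subunits of the mitochondrial trifunctional protein, which runs the hydratase, long-chain hydroxyacyl-CoA dehydrogenase and thiolase steps. The tables place both on chromosome 5 of mm9, 341 bases apart. Hadha stood at 27.6, 29.6 and 27.9 FPKM in control ALDH-, 28.4 and 21.6 in control ALDH+, 32.2, 24.3, 42.8, 29.3 and 30.7 in knockout ALDH-, and 26.4, 22.3, 19.6, 20.9 and 26.6 in knockout ALDH+ libraries. Hadhb stood at 40.0, 36.3 and 34.3 FPKM in control ALDH-, 34.7 and 33.0 in control ALDH+, 35.04, 33.5, 33.2, 31.9 and 33.2 in knockout ALDH-, and 26.1, 29.5, 26.5, 40.3 and 21.2 in knockout ALDH+ libraries. Both were mostly lower in ALDH+ cells, with overlap.

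The ALDH difference was -0.31 for Hadha (SE 0.14, unadjusted p = 0.039, adjusted p = 0.21) and -0.19 for Hadhb (SE 0.13, adjusted p = 0.48). In knockout cells alone it was -0.41 for Hadha (SE 0.16, unadjusted p = 0.018, adjusted p = 0.28). The ratio of Hadha to Hadhb had a median of 0.816 and ranged from 0.519 in knockout ALDH+ replicate 4 to 1.29 in knockout ALDH- replicate 3, with Hadha the higher in 3 of 15 libraries. Over the 15 libraries r between them was 0.11 (permutation p = 0.70, rho 0.21, permutation p = 0.44, adjusted p = 0.96 and 1.0 over the 36 pairs), and a common rise and fall of the 2 subunit transcripts was not detectable. It was -0.002 without the 2 libraries farthest from the median Hadha level, 0.38 within Rip-cre and -0.17 within Pdx-cre. Reads of a neighbouring entry that overlaps the end of Hadha (Fam59b) cannot be told apart from its own.

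Acaa2 encodes the mitochondrial 3-ketoacyl-CoA thiolase, the last step of the cycle. It ranged from 5.79 to 16.0 FPKM on 79 to 218 fragments, lowest in knockout ALDH+ replicate 5 and highest in knockout ALDH- replicate 5. Its ALDH difference was -0.47 (SE 0.23, adjusted p = 0.26). Within Pdx-cre it stood at 12.8, 10.9 and 16.0 FPKM in ALDH- and at 7.80, 6.20 and 5.79 FPKM in ALDH+ libraries, with no overlap, and within Rip-cre the sorts overlapped. The interaction of cre driver and ALDH was -0.86 (SE 0.39, unadjusted p = 0.042, adjusted p = 1.0). Of the 9 tested members, Hadha, Hadh and Acaa2 had ALDH+ libraries wholly below ALDH- libraries within Pdx-cre, where the ranges were apart in 16.5% of all genes, and Hadh had them so within Rip-cre, where they were apart in 5.56%.

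Ppara was at the floor of detection. It was listed at 0.0120, 0.116 and 0.0695 FPKM in control ALDH-, 0.632 and 0.638 in control ALDH+, 0.198, 0.113, 0, 0 and 1.76 in knockout ALDH-, and 0.195, 0.0913, 0.610, 0.167 and 0.527 in knockout ALDH+ libraries. Both control ALDH+ libraries were above the 3 control ALDH- libraries, but on 39.3 and 40.3 fragments. Between these small groups the ranges were apart in 31.1% of all genes tested, which do not include Ppara. In the knockout the sorts overlapped. A fit without the filter on low values, over 16928 genes, gave an ALDH difference of 0.28 (SE 0.21, adjusted p = 0.56). The related receptors were far more abundant, with median levels of 17.4 FPKM for Pparg and 14.2 FPKM for Ppard.

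Loss of Foxo moved no member past the threshold. In ALDH- cells 0 of 9 tested members passed, as did 0.0178% of all genes. In ALDH+ cells 0 of 9 passed and 0% of all genes, with 746 genes and no member at an unadjusted p under 0.05 (limma). Foxo1 itself was thus not called there, at 19.6 and 12.04 FPKM in control and 0.523 to 3.44 FPKM in knockout ALDH+ libraries. A comparison that misses its own target cannot show that the members did not change. No member had ranges apart between genotypes in either sort, against 3.12% of all genes in ALDH- and 8.23% in ALDH+ cells. Estimates lay between -0.72 (Acadm) and 0.13 (Hadha) in ALDH- cells and between -0.37 (Cpt1a) and 0.36 (Acaa2) in ALDH+ cells. Cpt1a was estimated lower in knockout cells of both sorts, by values of -0.35 (SE 0.26) and -0.37 (SE 0.30), with adjusted p = 0.96 and 0.90. The 95% confidence intervals were wide. The narrowest was that of Hadh in ALDH- cells, from -0.31 to 0.35, and the widest that of Acaa2 in ALDH+ cells, from -0.36 to 1.09.

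As a group, 1 of 9 tested members passed between ALDH sorts, beside 5.91% of all genes, and 2 of 9 between cre drivers, beside 9.84%. Whether the members differ from other genes in this share was not tested. The median ALDH difference of the members was -0.19, with 3 estimates above and 6 below 0, beside a median of -0.02 over all genes. For the cre driver the median was -0.03, with 4 above and 5 below 0, beside -0.01 over all genes. Over the 36 pairs of members the median r was 0.02, and 20 were above 0.

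Of the other 90 genes of the pathway list, 71 could be tested. Between ALDH sorts 2 of 71 passed, beside 5.91% of all genes, and both were lower. They were Idh3a (-0.65, SE 0.17, adjusted p = 0.035) and Dlst (-0.53, SE 0.15, adjusted p = 0.045), which encode subunits of isocitrate and oxoglutarate dehydrogenase in the citric acid cycle. Both calls lay near the threshold. Leaving out 1 library at a time ended the call of Idh3a in 7 and of Dlst in 11 of 15 fits, with adjusted p = 0.27 for both without control ALDH+ replicate 1. Of 16 tested citric acid cycle genes, 14 had estimates below 0, with a median of -0.32. Of 11 other mitochondrial β-oxidation enzymes 9 were below 0 (median -0.16) and none passed, the nearest being Decr1 (-0.66, adjusted p = 0.15) and Echs1 (-0.45, adjusted p = 0.19).

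The electron transfer flavoprotein genes, which take electrons from the acyl-CoA dehydrogenases, had Etfb at -0.53 (adjusted p = 0.11) and Etfa at -0.05 (adjusted p = 0.87). Among carnitine and malonyl-CoA genes the smallest p belonged to Mlycd, malonyl-CoA decarboxylase (-0.36, adjusted p = 0.24), and to Slc22a5, a carnitine transporter (0.29, adjusted p = 0.58). Peroxisomal β-oxidation genes had a median of -0.10 over 11, with Decr2 at -0.32 (adjusted p = 0.30) and Scp2 at -0.19 (adjusted p = 0.33). All 8 tested nuclear receptor and coactivator genes had estimates above 0 (median 0.14) and none passed, with Esrra at 0.45 (adjusted p = 0.30) and Esrrg at 0.43 (adjusted p = 0.36). Only 4 of 12 other PPAR target genes could be tested, among them Plin2 (0.42, adjusted p = 0.33) and Fgf21 (-0.51, adjusted p = 0.45).

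Between cre drivers 3 of the 71 passed, beside 9.84% of all genes. Whether the pathway genes differ from other genes in this share, or in that between ALDH sorts, was not tested. Fabp5, a fatty acid binding protein gene also known from macrophages and epithelia, was higher with Pdx-cre (2.59, SE 0.38, adjusted p = 0.00075), between 5.20 and 27.5 FPKM, while Rip-cre libraries reached 5.91 FPKM at most and so overlapped. Oxct1, which encodes the enzyme that activates ketone bodies for oxidation, was lower (-0.75, SE 0.16, adjusted p = 0.0077), as was Sdha, a succinate dehydrogenase subunit gene (-0.58, SE 0.12, adjusted p = 0.0086). All 3 calls were lost without the glucagon-rich libraries (adjusted p = 0.33, 0.19 and 0.34). They were also lost without those with acinar transcripts (adjusted p = 0.061, 0.11 and 0.095). Without the glucagon-rich libraries the estimates were 1.4979 for Fabp5, -0.7838 for Oxct1 and -0.5986 for Sdha. Without those with acinar transcripts they were 1.7949, -0.6022 and -0.6451. Both exclusions left fewer Pdx-cre libraries, so a lost call alone does not show a smaller difference.

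**Figure D5:**
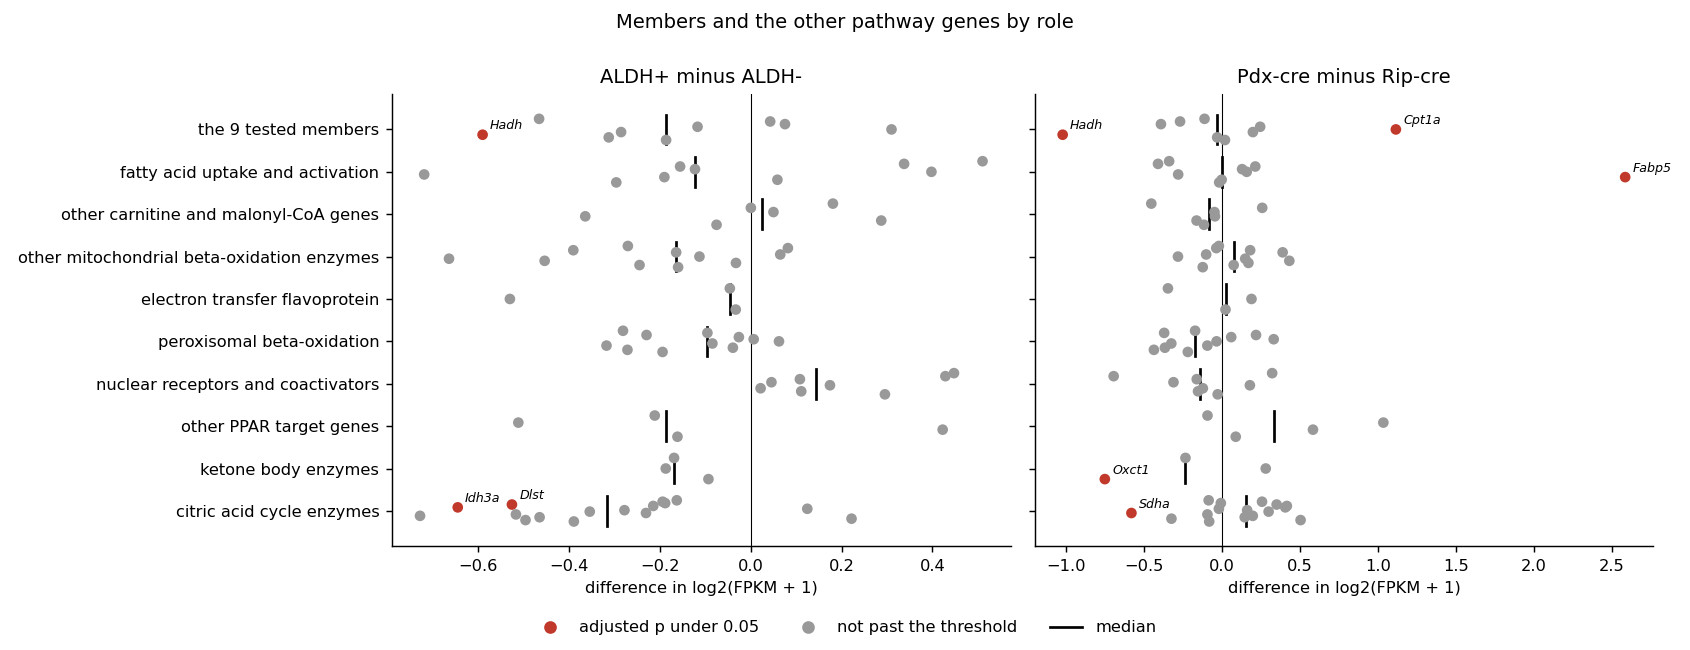
Differences in log2(FPKM + 1) (horizontal axes) of the 9 tested members and 71 other pathway genes, 1 point per gene, by role, between ALDH sorts (left) and cre drivers (right), with black lines for medians. Red points passed the threshold, and citric acid cycle genes have the lowest ALDH median at -0.32.

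The genes whose rescaled log2 levels followed a member most closely over the 15 libraries are given by Pearson's r as a description. For Cpt1a they were Sorl1 (0.96), Pdyn (0.92) and Trib1 (0.91), and for Hadha Ube2l3 (0.82), Aars (0.80) and Rnf5 (0.79). For Ppara they were Wdr59 (0.88), 4922501C03Rik (0.87) and Gfer (0.87), and without the library at 1.76 FPKM these fell to 0.75, 0.64 and 0.74. For Hadh, added after its values were seen, they were Cox6a2 (0.94), Fkbp9 (0.94) and Phactr1 (0.93). Cpt1a and Hadh separated the libraries by cre driver, so their values of r cannot be told apart from that split. Values within each driver were not computed for these genes.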

How the data were processed

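Poly-A RNA was sequenced from 15 sorted islet cell libraries. Per the submitters' processing notes the authors used bcl2fastq 1.8.4 and TopHat2 2.0.4 with mm9, and the deposited FPKM values, with 95% bounds per gene, have a Cufflinks layout (version, annotation and strand setting not given in the sources used here). The authors' own tests used read counts, which were not analysed here. Entries sharing a symbol (248 symbols) and 63 lines failed or too deep in any library were left out, leaving 22924 genes. Fragments per gene were computed from the bounds. FPKM was rescaled by trimmed means (30% and 5% trims), log2(FPKM + 1) taken, and genes with a mean below 1 left out. limma 3.58.1 (R 4.3.3, trended prior) was fitted with the 4 groups and cre driver over all libraries, for 8 comparisons, after tests on simulated data. Fold changes on this scale understate low genes.

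All 10 members were named, with pathway genes past the threshold in any comparison, otherwise up to 2 of smallest p per role, and the 3 genes most like Ppara, Cpt1a and Hadha. Members and lists were chosen with earlier results of these data known. Promoter windows came from RefSeq on GRCm38.p6, not matched to mm9 coordinates. Of same-numbered ALDH- and ALDH+ libraries, residuals correlated at -0.04 to 0.07, so numbers were not taken as pairs. Alternatives covered pseudocount, filter, scaling, transcript length, model and left-out libraries.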

Additional observations from a re-analysis of the deposited data

Results flagged for a closer look

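In the Foxo knockout ALDH- group, replicate 5 stood far above the other 4 libraries for Ppara, at 1.765 FPKM on 122.2 fragments. In the same group replicate 3 lay far below the others for Acadvl (13.92 FPKM) and far above them for Acadl (11.66 FPKM). In the Foxo knockout ALDH+ group, replicate 4 lay far above the others for Acadl (15.23 FPKM). These 4 values were marked because the gap to the nearest library exceeded 0.71 of the group's range on the log2 scale, out of 20 groups of 5 libraries examined. Chance marks about 1 in 20 groups where all 5 values come from a single normal distribution. Each of these groups mixes both cre drivers, so the share expected by chance here is not known.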

How the results depend on the processing

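The cre differences of Hadh and Cpt1a kept their direction under 26 alternatives each. Hadh passed in 26 and Cpt1a in 24, the exceptions being the 2 exclusions chosen after the data were seen, without the acinar (0.97) and without the glucagon-rich libraries (1.30), where 1 member passed and 139 and 50 genes in all, against 1107. The ALDH difference of Hadh passed in 23 of 31 alternatives. No member passed (0) with quantile normalization (Hadh -0.29), without cre driver in the model (-0.68), in Rip-cre (-0.49) or Pdx-cre libraries alone (-0.77), with a replicate block on equal numbers (-0.80, adjusted p = 0.066), or without the acinar (-0.53, adjusted p = 0.053) or glucagon-rich libraries (-0.49), and the cause was not tested. Leaving out 1 library at a time, 0 to 1 member passed, with Hadh between -0.64 and -0.53, and 3 to 830 genes in all. The 3 genes came without control ALDH+ replicate 1. Equal numbers did not deviate together, and as a check only, the replicate block left 22 genes of 665 and a block within cre driver 237 (Hadh -0.60, adjusted p = 0.049).

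Over all genes, the ALDH count of 665 became 403 with quantile normalization, 176 without cre driver, 156 and 4 within Rip-cre and Pdx-cre, 410 without the prior trend, and 407 and 239 without acinar and glucagon-rich libraries. In control cells 121 became 54 with quantile normalization, 20 within Rip-cre, 21 without glucagon-rich libraries, 9 with the compared groups only, 2 and 1 with the blocks, and 0 within Pdx-cre, without cre driver or without the prior trend. Leaving out 1 library gave 0 to 243. The cre count of 1107 ranged from 888 to 1091 under the alternatives other than the acinar and glucagon-rich exclusions, and from 689 to 1264 without 1 library. The remaining 5 comparisons had at most 7 calls under any alternative, except 33 and 16 without the filter on low values (knockout against control in ALDH+ cells, and the genotype interaction) and 9 without the acinar libraries (knockout against control in ALDH+ cells).

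Some estimates changed sign, none of them past the threshold in the main fit. For the ALDH difference these were Acadl (-0.0043 in Rip-cre alone and without glucagon-rich libraries, -0.0935 with the block) and Acadm (-0.0377 with the block). For the cre difference these included Hadhb (-0.0241 unscaled, -0.0111 quantile-normalized, -0.0727 with the length trend removed). Without glucagon-rich libraries they were Acadl (from -0.27 to 0.28), Acadvl (from 0.24 to -0.0803) and Hadha (from -0.0313 to 0.0633). The genotype interaction of Hadh was -0.11 after quantile normalization. Without 1 library, ranges crossed 0 for the ALDH difference of Acadl (-0.14 to 0.21), Acadm (-0.0590 to 0.20) and Acadvl (-0.27 to 0.0542), the cre difference of Hadha (-0.0862 to 0.0261), Hadhb (-0.10 to 0.11) and Acaa2 (-0.24 to 0.0140), and the genotype interaction of Hadh (-0.0306 to 0.19).

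Members with fewer than 100 fragments in some libraries (Acadl, Acadm, Acaa2, Ppara) carry the largest counting error. The difference given for Ppara came from the fit without the filter on low values.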
